A study of Mus musculus with 20 samples.

Results

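The nuclear genes of the mitochondrial ribosome were described in mouse myeloma cells treated with bortezomib. This drug blocks the proteasome and is given to patients with multiple myeloma. Members were all array probes whose platform gene symbol starts with Mrpl (named for the large subunit) or Mrps (named for the small subunit) followed by a number. This gave 132 of 45281 probes, for 76 of 19057 named genes (48 Mrpl and 28 Mrps). Of these, 117 probes for 73 genes (46 Mrpl and 27 Mrps) were among the brighter 50% of probes and were tested. Mrpl19, Mrpl32 and Mrps14 were too dim. The cells were the lines 589bm and 595sp, cultured from multiple myelomas of Bcl-XL/Myc double transgenic mice of mixed FVBN and BL/6 background. All groups therefore carry both transgenes. Of each line, 1 sensitive and 1 resistant culture were profiled, before and 2, 8, 16 and 24 h into treatment with 33 nM bortezomib, with 1 array per culture and time. The 2 lines served as the replicates of a group. Each line is represented by a single pair of cultures.

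The mitochondrial ribosome translates the few messenger RNAs of the mitochondrial genome, all of which encode core subunits of the respiratory chain and ATP synthase. Its ribosomal RNAs come from mitochondrial DNA, but all its proteins are encoded in the nucleus, made in the cytosol and imported. Some of these proteins have bacterial homologues, and others are found only in mitochondrial ribosomes.

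One array, 589bm resistant at 2 h, carried almost no signal (0.144% of probes above 2 times the array median, while the remaining arrays had 13.4% to 20.3%) and was left out, leaving 19 arrays. On the 5 arrays titled as the 595sp resistant culture, other label fields disagreed with the title on sensitivity and time, and the title, which the source name and description match, was used. Array mean intensity before normalisation was 544 at 0 h and 471 at 24 h in 589bm sensitive, and 638 and 385 in 595sp sensitive. Quantile normalisation, which gives every array the same distribution, removes such a difference. Of 8 plasma cell markers on the array, 6 were bright enough to be tested (Sdc1, Xbp1, Prdm1, Irf4, Mzb1 and Slamf7), while Tnfrsf17 and Jchain were too dim. The values are relative RNA levels of bulk cultures, in which fewer expressing cells and less RNA per cell cannot be told apart. A gene was called at an adjusted p under 0.05 (limma's moderated test, Benjamini-Hochberg over all 22641 kept probes), and a gene with several probes was read from its brightest one.

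In the sensitive cultures, more mitochondrial ribosomal protein genes were called lower than higher at 24 h of bortezomib with quantile normalisation. With median scaling of the arrays only falls passed, a count given below without the share of all genes. At 24 h, 19 of the 73 genes were called (26%), 13 lower and 6 higher, where 14.5% of all 11802 genes were called. The share called lower was 17.8% of members beside 6.24% of all genes, and the share called higher was 8.22% beside 8.24%. The median log2 change of the members was -0.22 (53 of 73 below 0) and that of all genes 0.02. Of 46 genes with Mrpl symbols 9 fell and 4 rose, and of 27 with Mrps symbols, not all of them small-subunit genes, 4 fell and 2 rose. At 16 h, 12 members were called (16.4%), beside 10.6% of all genes. Of these 7 were higher and 5 lower (9.59% and 6.85%), beside 5.82% and 4.74% of all genes. At 8 h only Mrpl1 was called (1.37% of members, beside 2.56% of all genes called in either direction and 1.53% called higher), and at 2 h none (0% of all genes, with 3 members at an unadjusted p under 0.05).

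Of the 12 genes called at 16 h, 9 were also called at 24 h, all in the same direction. The overlap over all genes is not given here. Both times are set against the same 0 h arrays. The scaling of the arrays decides the balance between falls and rises. With each array scaled by its median instead of quantiles, 12 members were called lower and 0 higher at 24 h, and 7 lower and 0 higher at 16 h, while the median of all genes moved to -0.10 and -0.17. Shares of all genes called under that scaling are not set beside these counts, so this split is not read as a result about the members. Of the falls given with an error below, each was larger under that scaling, and all but Mrpl27 (adjusted p = 0.05829) passed. None of the rises passed there. The count at 24 h was 8 without the 589bm array at 24 h and 5 without any one of the 595sp array at 24 h and the 0 h arrays of either line. At 16 h it was 2 without the 589bm array at 0 h or at 16 h, 4 without the 595sp array at 0 h and 13 without that at 16 h. Without the 5 arrays of disputed label the counts at 16 and 24 h were 6 and 9, and with no block for culture they were 0 and 0.

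**Figure D1:**
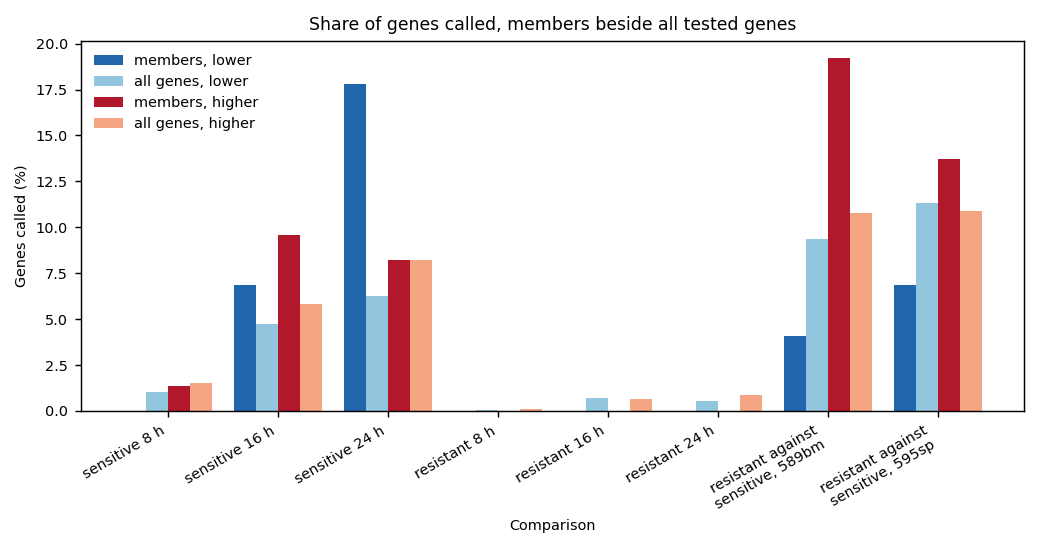
Share of genes called (percent, y axis) in each comparison (x axis), for the 73 mitochondrial ribosomal protein genes and for all 11802 genes, split into lower and higher. The members' share called lower in the sensitive cultures at 24 h is 17.8%, against 6.24% of all genes, and no member is called in the resistant cultures at 8, 16 or 24 h. The split into lower and higher depends on the scaling of the arrays.

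**Figure D2:**
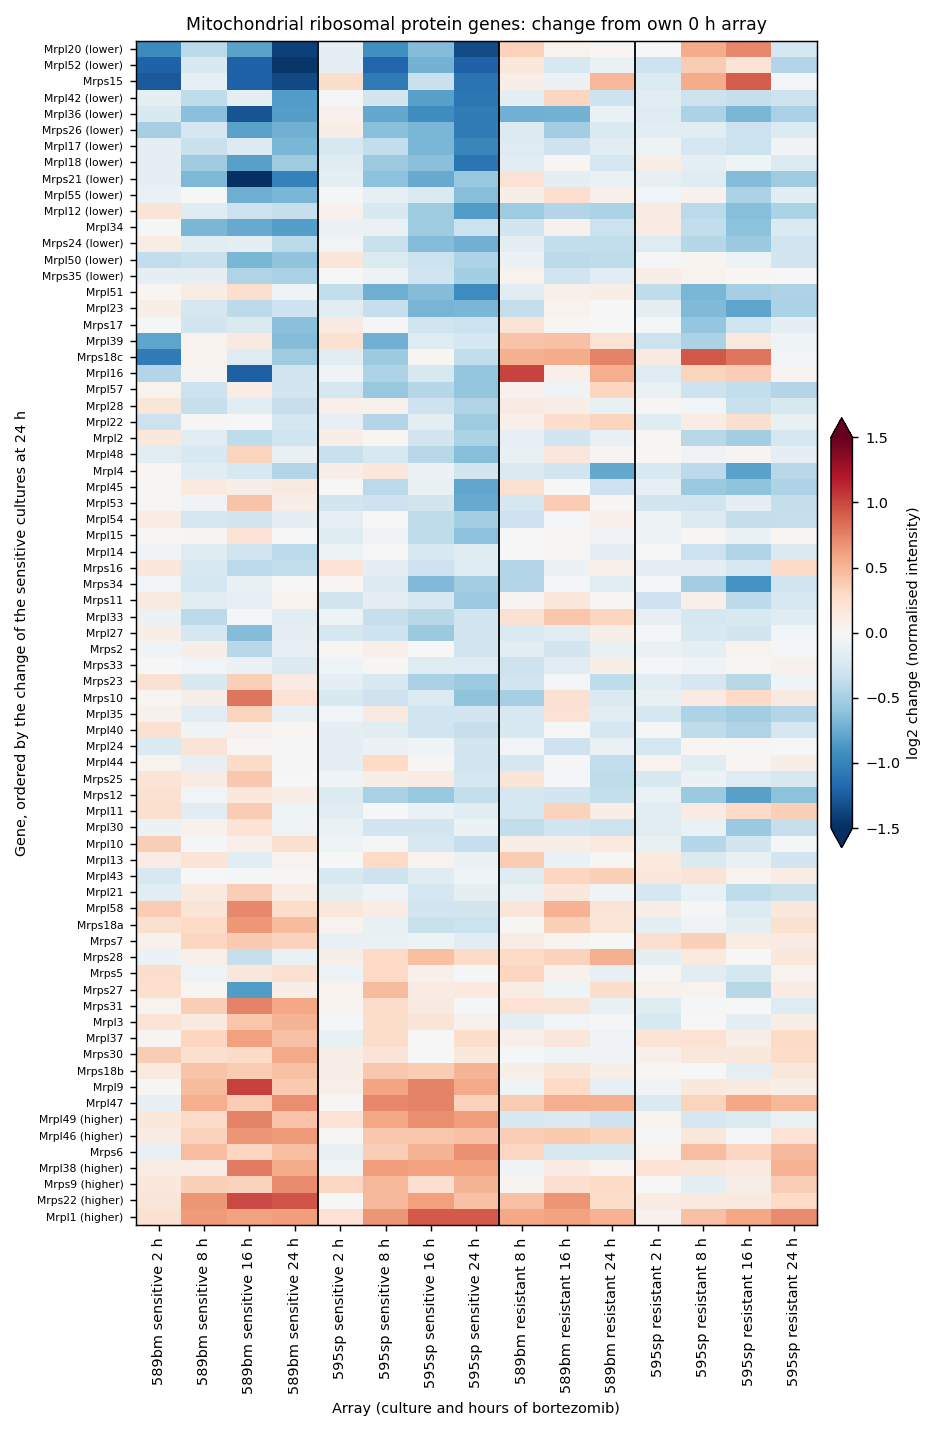
Log2 change of normalised intensity from the 0 h array of the same culture (colour) for the 73 genes (rows, ordered by the mean change of the sensitive cultures at 24 h) on each treated array (columns). The genes called at 24 h in the sensitive cultures are marked lower or higher. Columns run from the sensitive cultures on the left to the resistant ones on the right, and the 589bm resistant array at 2 h is left out.

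Among the large-subunit genes, Mrpl36, which encodes a small protein with a bacterial homologue, fell at both late times. Its normalised log2 intensity in 589bm sensitive was 11.22 at 0 h, 10.99 at 2 h, 10.59 at 8 h, 9.93 at 16 h and 10.39 at 24 h. In 595sp sensitive it was 11.28, 11.34, 10.51, 10.36 and 10.23 at the same times. In both lines every array from 8 h on lay below the arrays at 0 and 2 h. The log2 change was -1.11 ± 0.19 (SE, n = 2 lines, limma adjusted p = 0.001517) at 16 h and -0.94 ± 0.19 (adjusted p = 0.003535) at 24 h. The 16 h call held with any one of its 4 arrays left out (adjusted p up to 0.03988), and the 24 h call was lost without the 589bm array at 0 h or the 595sp array at 24 h (adjusted p up to 0.08217). In the resistant cultures Mrpl36 was 11.26 at 0 h, 10.54 at 8 h, 10.56 at 16 h and 11.16 at 24 h in 589bm. In 595sp resistant it was 11.40, 11.20, 10.92, 10.72 and 10.91 at the 5 times.

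Mrps21, the small-subunit member with the largest fall at 16 h, has a bacterial homologue as well. It read 11.89, 11.74, 11.21, 10.20 and 10.88 at 0, 2, 8, 16 and 24 h in 589bm sensitive, and 11.45, 11.32, 10.83, 10.70 and 10.88 in 595sp sensitive. The arrays from 8 h on lay below those at 0 and 2 h in both lines. The log2 change was -1.22 ± 0.21 (SE, n = 2 lines, limma adjusted p = 0.001724) at 16 h and -0.79 ± 0.21 (adjusted p = 0.0206) at 24 h. Without the 589bm array at 0 h or at 16 h the call at 16 h was lost (change down to -0.82, adjusted p up to 0.05562). The call at 24 h was lost without the 589bm array at 0 h or either 24 h array (adjusted p up to 0.2473). The 589bm resistant culture started lower, at 10.64, and stayed between 10.51 and 10.85. In 595sp resistant the change from 0 h was -0.65 at 16 h and -0.53 at 24 h. The 595sp sensitive culture changed by -0.75 and -0.57 at these times.

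The promoters of these genes, and of Mrpl1 and Mrps22 that rose, are shown because NRF1, YY1 and GABP, an ETS factor, are known regulators of nuclear genes for mitochondrial proteins. Each line holds the 250 bases before and 50 bases after the annotated start, 5′ to 3′ on the gene's strand, from RefSeq (GRCm38.p6). Capitals mark a match, on either strand, to the NRF1 motif (GCGC, any base, then TGCGC), the YY1 motif AAGATGGCG, the ETS motif CCGGAAG or the E-box CACGTG bound by Myc. The windows are chr13:73330759-73331058 (plus strand) for Mrpl36, chr3:95871465-95871764 (minus) for Mrps21, chr5:96209865-96210164 (plus) for Mrpl1 and chr9:98601630-98601929 (minus) for Mrps22.
Mrpl36: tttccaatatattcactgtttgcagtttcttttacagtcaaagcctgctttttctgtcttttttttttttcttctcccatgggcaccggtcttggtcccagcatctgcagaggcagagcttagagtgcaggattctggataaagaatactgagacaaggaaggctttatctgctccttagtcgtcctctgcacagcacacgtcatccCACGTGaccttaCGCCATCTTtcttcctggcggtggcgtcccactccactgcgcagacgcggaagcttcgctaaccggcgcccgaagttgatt
Mrps21: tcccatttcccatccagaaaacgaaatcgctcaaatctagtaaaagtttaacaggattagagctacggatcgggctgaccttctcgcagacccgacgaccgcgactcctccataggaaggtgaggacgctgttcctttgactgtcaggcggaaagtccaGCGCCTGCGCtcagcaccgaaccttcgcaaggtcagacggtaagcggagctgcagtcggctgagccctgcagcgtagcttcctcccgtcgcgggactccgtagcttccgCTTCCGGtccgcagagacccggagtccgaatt
Mrpl1: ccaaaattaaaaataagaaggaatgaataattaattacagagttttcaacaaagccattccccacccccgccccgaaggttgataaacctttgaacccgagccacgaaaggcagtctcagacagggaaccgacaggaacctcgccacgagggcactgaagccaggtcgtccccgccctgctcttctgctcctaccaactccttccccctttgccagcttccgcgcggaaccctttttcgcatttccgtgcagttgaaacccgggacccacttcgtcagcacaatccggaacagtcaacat
Mrps22: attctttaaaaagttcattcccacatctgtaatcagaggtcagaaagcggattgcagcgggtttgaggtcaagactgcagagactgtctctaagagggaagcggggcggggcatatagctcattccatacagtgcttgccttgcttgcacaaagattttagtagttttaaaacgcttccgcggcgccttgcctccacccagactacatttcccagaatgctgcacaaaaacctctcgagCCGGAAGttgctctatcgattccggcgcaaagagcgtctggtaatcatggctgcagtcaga
Mrpl36 holds an E-box and, 31 bases before the start, a YY1 match in reverse. Mrps21 holds an NRF1 match and an ETS match, Mrps22 an ETS match, and Mrpl1 none of the 4.

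Over the 67 members with a promoter in the table, the NRF1, YY1 and ETS motifs were more frequent than over the 9544 tested genes with one, and the E-box was less frequent. An ETS match was present in 26 members (38.8%, against 18.7% of tested genes and 8.86% of all 32851 promoters). An NRF1 match was present in 13 (19.4%, 10.6% and 4.6%) and a YY1 match in 8 (11.9%, 3.37% and 1.4%). The E-box was present in 5 (7.46%, 11.3% and 7.15%). Mean GC content was 58.8% in member promoters and 59.5% in those of tested genes. Of the 12 members called lower at 24 h that had a promoter, 4 held an NRF1 match, 3 a YY1 match, 5 an ETS match and 2 an E-box. Of the 5 called higher, the counts were 1, 0, 1 and 0, and of the 48 not called they were 7, 5, 20 and 3. The 67 also include Mrpl32 and Mrps14, which were too dim to be tested. A window may hold several motifs, an ETS match can run into a YY1 match through the letters AAG, and each is then counted. These counts are descriptions without a test.

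Mrps26, specific to the mitochondrial ribosome, and Mrpl17, whose bacterial homologue lies near the exit of the peptide tunnel, also fell. Mrps26 changed by -0.74 ± 0.20 at 16 h and -0.89 ± 0.20 (SE, n = 2 lines, limma adjusted p = 0.00731) at 24 h, and its second probe also fell at 24 h (-0.81). Mrpl17 changed by -0.84 ± 0.16 (adjusted p = 0.002497) at 24 h. It read 11.60 at 0 h and 10.91 at 24 h in 589bm sensitive, and 12.11 and 11.12 in 595sp sensitive, where every later array lay below the one before it. Mrpl18, whose bacterial homologue binds the smallest ribosomal RNA of the large subunit, changed by -0.72 ± 0.18 at 16 h and -0.81 ± 0.18 (adjusted p = 0.006135) at 24 h. Its dim second probe gave -0.39 and -0.37. Mrpl42, specific to the mitochondrial ribosome, changed by -0.96 ± 0.21 (adjusted p = 0.005349) at 24 h, and Mrpl27 by -0.61 ± 0.16 (adjusted p = 0.02634) at 16 h alone. The other members called lower at 24 h were Mrpl12, Mrpl50, Mrpl55, Mrps24 and Mrps35, with changes from -0.66 to -0.50. When one of the 4 arrays was left out, the 24 h call of Mrpl17 was lost only without the 595sp array at 0 h (adjusted p = 0.05173), and those of Mrpl18 and Mrpl42 without a 595sp array (adjusted p up to 0.1716 and 0.07583). That of Mrps26 was kept only without the 589bm array at 24 h (adjusted p otherwise up to 0.143). At 16 h the calls of Mrps26, Mrpl18 and Mrpl27 were kept only without the 595sp array at 16 h (adjusted p otherwise up to 0.1926, 0.2165 and 0.2282).

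The 2 largest falls at 24 h belonged to genes that also differed between early arrays. Mrpl20, whose bacterial homologue acts early in assembly of the large subunit, read 10.81, 9.85, 10.40, 10.001 and 9.41 at the 5 times in 589bm sensitive. In 595sp sensitive it read 10.06, 9.93, 9.14, 9.42 and 8.72. Its 24 h arrays were the lowest of both cultures, but in 589bm the 2 h array lay below the 8 h and 16 h arrays. The change at 24 h was -1.37 ± 0.25 (SE, n = 2 lines, limma adjusted p = 0.0019), and it passed with any one of its 4 arrays left out. The resistant cultures read 10.40, 10.75, 10.45 and 10.43 (0, 8, 16 and 24 h) in 589bm and 9.70, 9.69, 10.26, 10.42 and 9.44 in 595sp, with the 24 h array the lowest in 595sp alone. Mrpl52, specific to the mitochondrial ribosome, read 10.33, 9.12, 10.10, 9.12 and 8.88 in 589bm sensitive and 10.43, 10.28, 9.24, 9.72 and 9.22 in 595sp sensitive. Its arrays also moved up and down between neighbouring times. It had a change of -1.34 ± 0.31 (adjusted p = 0.009657) at 24 h over both lines, a call kept only without the 595sp array at 0 h (adjusted p otherwise up to 0.09993). Mrps18c had a similar early dip in 589bm sensitive (11.18 at 0 h, 10.13 at 2 h and 11.23 at 8 h) and was not called at any time.

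Mrpl1 was called higher at 8, 16 and 24 h, though the call at 8 h was lost with any one of the 4 arrays left out. Mrpl1, whose bacterial homologue forms a mobile stalk at the exit site of transfer RNA, read 10.32, 10.55, 10.96, 10.93 and 10.95 at 0, 2, 8, 16 and 24 h in 589bm sensitive. In 595sp sensitive it read 10.44, 10.66, 11.10, 11.36 and 11.36, so that in both lines all arrays from 8 h on lay above the early ones. The log2 change was 0.65 ± 0.16 (SE, n = 2 lines, limma adjusted p = 0.04968) at 8 h, 0.76 ± 0.16 (adjusted p = 0.007072) at 16 h and 0.77 ± 0.16 (adjusted p = 0.004842) at 24 h. A second, dim Mrpl1 probe gave 0.16, 0.43 and -0.13. With median scaling the change at 24 h was 0.37 (adjusted p = 0.5603). The call at 24 h was lost without either 595sp array and that at 16 h without either 0 h array (adjusted p up to 0.08538 and 0.08809). Mrpl1 lay higher in the resistant cultures too, by 0.61 at 24 h (adjusted p = 0.08378).

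Mrps22, a mitochondria-specific protein whose human counterpart is mutated in inherited mitochondrial disease, rose from 10.44 at 0 h to 11.43 at 16 h and 11.38 at 24 h in 589bm sensitive. In 595sp sensitive it read 10.47, 11.08 and 10.90. The change was 0.80 ± 0.18 (SE, n = 2 lines, limma adjusted p = 0.0087) at 16 h and 0.69 ± 0.18 (adjusted p = 0.01704) at 24 h. With median scaling it was 0.38 and 0.29, with adjusted p = 0.5433 and 0.6788. Both calls were lost without a 589bm array (adjusted p up to 0.1744 and 0.2292). Mrpl9, which has a bacterial homologue, rose by 0.89 ± 0.17 (adjusted p = 0.00325) at 16 h, a call lost without the 589bm array at 16 h (adjusted p = 0.06777), and only its second probe passed at 24 h (0.63). Mrps9, with a bacterial homologue, rose by 0.61 ± 0.16 (adjusted p = 0.01768) at 24 h, kept only without the 595sp array at 24 h (adjusted p otherwise up to 0.1721). Mrpl49, Mrpl38 and Mrpl46, all specific to the mitochondrial ribosome, were called higher at both late times, by 0.73, 0.69 and 0.54 at 16 h and by 0.53, 0.58 and 0.54 at 24 h. At 24 h all 3 calls were lost with any one of the 4 arrays left out, and at 16 h each was kept in 1 of 4 such fits (adjusted p up to 0.3288). The 3 other kept probes of Mrpl49 lay between -0.28 and -0.18 at 24 h, and the other Mrpl38 probe at 0.09, so these calls rest on 1 probe each. Mrpl47 was called higher at 16 h alone (0.57 ± 0.17, adjusted p = 0.04814), a call lost with any one of the 4 arrays left out, and its other probes lay at -0.05 and 0.20.

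**Figure D3:**
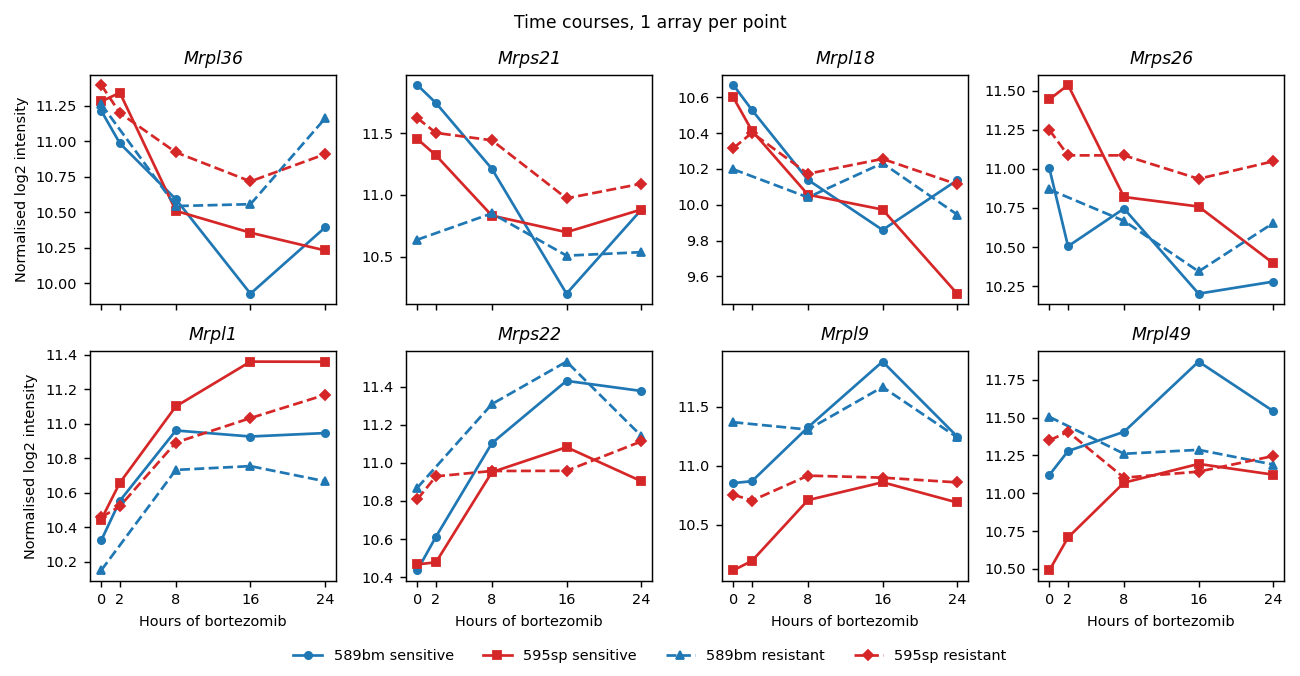
Normalised log2 intensity (y axis) against hours of bortezomib (x axis) for 4 genes that fell (top row) and 4 that rose (bottom row) in the sensitive cultures, with 1 array per point and 1 line per culture. Mrpl36 falls from 11.22 to 9.93 by 16 h in 589bm sensitive, and Mrpl1 rises from 10.44 to 11.36 in 595sp sensitive.

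Genes of particular functional sites were described whatever their values. Of the stalk that recruits translation factors, Mrpl12, which also binds the mitochondrial RNA polymerase, fell at 24 h (-0.59 ± 0.16, SE, n = 2 lines, limma adjusted p = 0.02305, kept only without the 589bm array at 24 h and otherwise up to 0.3165), while Mrpl10 lay at -0.06 and Mrpl11 at -0.12. Mrps12, a protein of the decoding centre, lay at -0.13, Mrps16 at -0.28 and Mrps2 at -0.21. Mrpl45, at the tunnel exit next to the inner membrane, lay at -0.33, with 0.13 in 589bm and -0.78 in 595sp. Of the 3 homologues of a single bacterial protein, Mrps18a lay at 0.08, Mrps18b at 0.47 (adjusted p = 0.05192) and Mrps18c at -0.45. Mrps27 lay at 0.13, Mrps30 at 0.36 and Mrpl3 at 0.29. None of these except Mrpl12 passed.

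The lines were set side by side through each culture's own change. All 13 genes called lower and all 6 called higher at 24 h had the same sign in both lines, which the test favours. Over the 73 genes, 40 were lower in both lines, 14 higher in both and 19 opposite, and over all genes 3715, 4231 and 3851. The median member changed by -0.06 in 589bm and -0.32 in 595sp at 24 h. When the mean of 16 and 24 h was set against the mean of 0 and 2 h in each sensitive culture, 14 members were called in 589bm (19.2%, with 16.5% of all genes called). Of these 9 were higher and 5 lower, beside 8.85% and 7.67% of all genes. In 595sp 17 were called (23.3%, with 14% of all genes called), 7 higher and 10 lower, beside 7.09% and 6.91% of all genes. The 589bm count was 3 without its 0 h array and 6 without its 16 h array, and the 595sp count 4, 5 and 3 without its 0, 2 or 24 h array. With median scaling these splits became 0 higher and 19 lower, and 0 higher and 45 lower. Shares of all genes under that scaling are not given here, so these splits are not read as a result about the members. Called in both lines with the same sign were 9 genes, and the overlap over all genes is not given here. Higher were Mrpl1, Mrpl9, Mrpl38, Mrpl47, Mrpl49 and Mrps22, and lower were Mrpl18, Mrpl36 and Mrps21. In 595sp the calls of Mrpl9 and Mrpl38 were lost in 4 of 5 fits without 1 array (limma adjusted p up to 0.2688 and 0.1149). In 589bm those of Mrpl9 and Mrpl18 were lost in 3 of 5 (up to 0.2756 and 0.2476). The calls of Mrps21 and Mrps22 in 589bm and of Mrpl36 in 595sp were kept in all 5. In 589bm alone Mrpl34 was lower (-0.78 ± 0.17, SE over neighbouring times, limma adjusted p = 0.005264), and in 595sp alone Mrpl42 and Mrps24 (-0.94 and -0.67). No member passed the test of a difference between the sensitive lines (0.686% of all genes did), with 13 members at an unadjusted p under 0.05. These p-values measure the spread between neighbouring times within a culture, pooled over the 4 cultures (7 residual degrees of freedom). They do not measure a spread between replicate cultures.

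**Figure D4:**
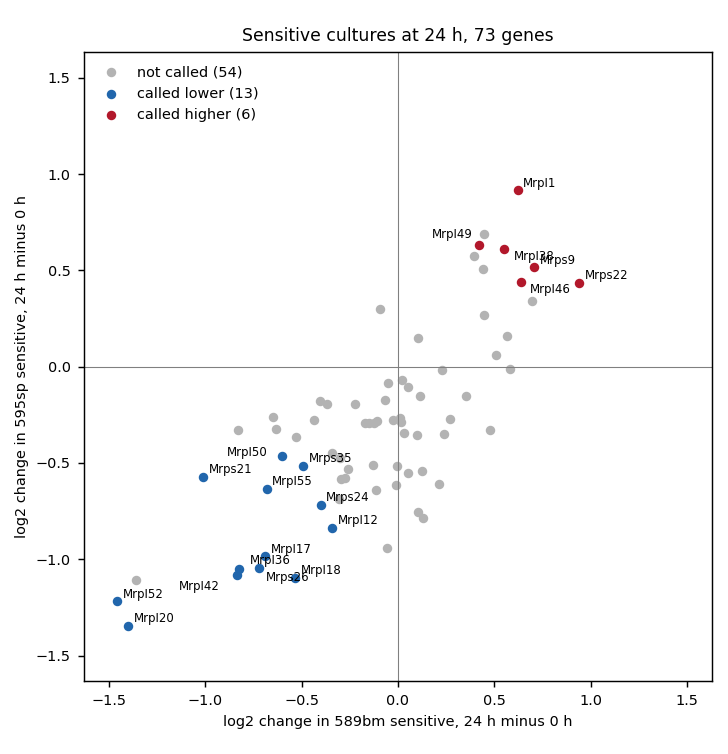
Log2 change at 24 h in the 595sp sensitive culture (y axis) against that in the 589bm sensitive culture (x axis), 1 point per gene for the 73 genes. The 13 genes called lower lie at lower left and the 6 called higher at upper right.

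In the resistant cultures no member was called at 8, 16 or 24 h, beside 0.203%, 1.33% and 1.42% of all genes. Those called higher were 0.127%, 0.635% and 0.864% of all genes, and those called lower 0.0763%, 0.695% and 0.551%. At an unadjusted p under 0.05 there were 9, 11 and 5 members. The median change of the members was -0.05, -0.10 and -0.07 at these times. The 13 genes called lower in the sensitive cultures at 24 h were all below 0 in the resistant cultures, with a smaller change in every case and a median of -0.27 against -0.81. Of the 6 called higher, 5 lay above 0, all with a smaller change. The sensitive values chose these genes, so the contrast is a description. The direct test of the difference in response (resistant minus sensitive, mean of 8, 16 and 24 h) called no member and 0.11% of all genes, with 9 members at an unadjusted p under 0.05. The smallest p-values belonged to Mrpl49 (-0.78 ± 0.18, limma adjusted p = 0.1386), Mrpl20 (1.16 ± 0.29, adjusted p = 0.1816) and Mrpl9 (-0.55 ± 0.19, adjusted p = 0.3214). Within the 595sp resistant culture alone, late against early arrays gave 5 calls (6.85%, beside 3.67% of all genes, 1.49% higher and 2.18% lower). They were Mrps12 (-0.66), Mrpl12 (-0.62) and Mrpl23 (-0.56) lower, and Mrpl47 (0.65) and Mrpl1 (0.61) higher. None passed when one of the 0, 2 or 16 h arrays of that culture was left out. In 589bm resistant there were none (1.25% of all genes, 0.72% higher and 0.525% lower, 8 members at an unadjusted p under 0.05).

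Resistant and sensitive cultures of the same line differed in mitochondrial ribosomal protein genes about as often as in other genes. In 589bm 17 members were called (23.3%, 14 higher and 3 lower in the resistant culture), beside 20.1% of all genes (10.8% higher and 9.36% lower). The count was 8 or 9 without the resistant or the sensitive 8 h array and 11 without the resistant 16 h array. In 595sp 15 were called (20.5%, 10 higher and 5 lower), beside 22.2% of all genes (10.9% higher and 11.3% lower). With median scaling the splits were 1 higher and 12 lower in 589bm, and 7 higher and 1 lower in 595sp. The direction in 589bm thus depends on the scaling, and none is given for the members there. Under median scaling 21% of all genes were called in 589bm, and 9.56% were called higher in 595sp. These splits are not read as a result about the members. The 595sp comparison rests on the 5 arrays of disputed label. Called in both lines were 4 genes, and the overlap over all genes is not given here. Mrpl22, Mrpl34 and Mrpl35, all with bacterial homologues, were higher in both resistant cultures (0.56, 0.54 and 0.67 in 589bm, and 0.52, 0.63 and 0.37 in 595sp), and Mrps12 went opposite ways. In 589bm these 3 rises did not pass with median scaling. At 0 h alone no member and 0% of all genes passed, with 4 members at an unadjusted p under 0.05 and 1 residual degree of freedom. With a single pair of cultures per line, these p-values rest on how much the pair's difference varied from time to time.

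Mrps12 read 11.20, 11.43, 11.16, 11.37 and 11.30 at 0, 2, 8, 16 and 24 h in 589bm sensitive, and 12.36, 12.10, 12.07 and 12.00 at 0, 8, 16 and 24 h in 589bm resistant. In 595sp it read 11.28, 11.08, 10.80, 10.71 and 10.93 in the sensitive culture and 10.78, 10.68, 10.22, 9.97 and 10.17 in the resistant one. All resistant arrays lay above all sensitive ones in 589bm, and at each time below the sensitive one in 595sp. The difference was 0.88 ± 0.13 (SE over times, limma adjusted p = 0.0002692) in 589bm and -0.59 ± 0.10 (adjusted p = 0.001769) in 595sp. The second probe gave 0.44 and -0.76, both called. The test of the difference between the lines gave -1.47 ± 0.16 (adjusted p = 4.232e-06), beside 22.6% of all genes called in that test. With median scaling the values were 0.67, -0.37 and -1.04, of which the 595sp value did not pass (adjusted p = 0.2826). Leaving out one array gave 0.42 (adjusted p = 0.1009, without the resistant 16 h array) to 0.94 in 589bm, where the call was also lost without the resistant 8 h array. In both cases the second probe became the brighter one and took the place of the first.

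Mrps12 lies next to Sars2, which encodes the mitochondrial seryl-tRNA synthetase and is read from the other strand. Their promoter windows in the RefSeq table share 246 bases, and the Mrps12 window is chr7:28741772-28742071 (minus strand, GRCm38.p6), with its ETS match in capitals.
Mrps12: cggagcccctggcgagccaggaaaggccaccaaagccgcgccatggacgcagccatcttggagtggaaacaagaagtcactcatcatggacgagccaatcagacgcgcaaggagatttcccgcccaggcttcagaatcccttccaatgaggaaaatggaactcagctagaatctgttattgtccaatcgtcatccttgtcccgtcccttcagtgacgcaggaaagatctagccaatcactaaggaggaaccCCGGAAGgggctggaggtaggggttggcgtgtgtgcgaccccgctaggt
The single, dim Sars2 probe differed by 0.25 ± 0.15 (SE, limma adjusted p = 0.2917) in 589bm and by -0.09 ± 0.10 (adjusted p = 0.6102) in 595sp.

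The test of the difference between the lines called 14 members (19.2%, beside 22.6% of all genes). Mrpl51, specific to the mitochondrial ribosome, was lower in 595sp resistant and not called in 589bm. It read 8.51, 8.14, 7.78, 7.86 and 7.57 in 595sp sensitive and 7.45, 7.06, 6.76, 6.94 and 6.98 in 595sp resistant, where all arrays lay below all sensitive ones. The difference was -0.93 ± 0.11 (SE over times, limma adjusted p = 0.000137), all 3 probes were called, and the line difference was -1.18 ± 0.17 (adjusted p = 0.00012). In 589bm the sensitive culture read 7.02 to 7.33 and the resistant one 7.23 to 7.49.

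Mrpl39 and Mrps18b moved the other way. Mrpl39, whose single probe is dim, read 7.95, 7.16, 8.00, 8.08 and 7.30 in 589bm sensitive and 6.42, 6.85, 6.86 and 6.64 in 589bm resistant, with no overlap. The difference was -1.14 ± 0.16 (SE over times, limma adjusted p = 0.0002577) in 589bm and -0.10 in 595sp, and the line difference was 1.03 ± 0.21 (adjusted p = 0.002214). Mrps18b was lower in 589bm resistant by all 3 probes (-0.65, -0.58 and -0.69), at 11.23 to 11.44 against 11.67 to 12.11. In 595sp it lay at 0.32 (adjusted p = 0.05499), and the line difference was 0.98 ± 0.16 (adjusted p = 0.0002651). The line differences of these 2 genes and of Mrpl51 were kept with median scaling and with any one array left out. With the authors' deposited normalized values, Mrpl51 differed by -0.53 in 595sp with a line difference of -0.66, and Mrpl39 by -0.60 in 589bm with a line difference of 0.55, all smaller by over 1.5 times and all still called.

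Further genes were called in one line only. Of those named here, Mrpl47, Mrpl4, Mrpl37 and Mrpl33 also passed the test of the difference between the lines. The others did not, so a difference between the lines is not shown for them. In 589bm resistant Mrpl47 was lower (-0.73 ± 0.13, SE, limma adjusted p = 0.001081), though its other probes lay at -0.32 and 0.11, and Mrpl4 (0.76), Mrps6 (0.66), Mrpl12 (0.58), Mrps27 (0.53) and Mrpl11 (0.50) were higher. With median scaling the Mrpl47 call held and these 5 rises did not pass (adjusted p from 0.05645 to 0.4207). The calls of Mrps27 and Mrpl11 were lost in 6 of 8 fits without 1 array (adjusted p up to 0.1884 and 0.07047). That of Mrps6 was lost in 2 of 8 (up to 0.05178), and those of Mrpl47, Mrpl4 and Mrpl12 were kept in all. In 595sp resistant Mrpl37 (0.51) and Mrps30 (0.50), both large-subunit proteins in the assembled ribosome, were higher and also passed with median scaling. Mrps18c (-0.65), Mrps28 (-0.59) and Mrpl33 (-0.40) were lower and did not pass with it. The Mrps18c call was lost in 8 of 10 fits without 1 array (adjusted p up to 0.092), and the other calls named here in 595sp were kept in all.

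**Figure D5:**
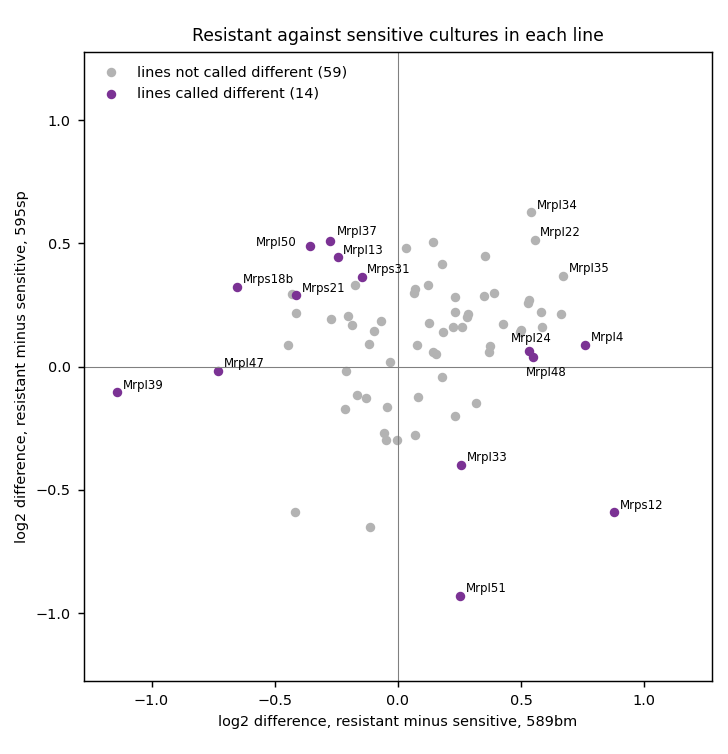
Log2 difference between the resistant and the sensitive culture in 595sp (y axis) against that in 589bm (x axis), 1 point per gene for the 73 genes. The 14 genes whose difference itself differed between the lines are coloured, and Mrps12 lies at lower right (0.88 and -0.59).

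Other genes of mitochondrial gene expression were read in the sensitive cultures at 24 h for comparison. Of all genes 14.5% were called there, 6.24% lower and 8.24% higher. Nuclear-encoded respiratory chain genes were called in 21 of 74 cases (28.4%), 19 lower and 2 higher, with a median of -0.36, while cytosolic ribosomal protein genes were called in 2 of 50 (4%), with a median of -0.02. Of 17 tested assembly factors of the mitochondrial ribosome, 5 were called (29.4%). The ribosomal RNA methyltransferase Nsun4 (1.04), the chaperone of small-subunit RNA Eral1 (0.73) and the pseudouridine synthase Rpusd4 (0.62) rose, and the RNA methyltransferase Tfb1m (-1.21) and the GTPase Noa1 (-0.91) fell. Of 18 genes for charging of mitochondrial transfer RNA, Gatc (-0.92) and Rars2 (-0.86) fell (11.1%, below the share of all genes called). None of 16 translation factors was called, with 3 at an unadjusted p under 0.05. Ssbp1, which coats single-stranded mitochondrial DNA, fell (-0.98) as the only call among 9 genes of DNA maintenance and transcription (11.1%, also below that share). With median scaling 23 of the 74 respiratory chain genes were called, all lower, and the falls named here passed, while Nsun4, Eral1 and Rpusd4 were not called (0.70, 0.47 and 0.25, with adjusted p = 0.2048, 0.4479 and 0.733). The share of all genes under median scaling is not set beside that count. No difference between these lists was tested.

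Between resistant and sensitive cultures, 35 of 74 respiratory chain genes were called in 589bm (47.3%, beside 20.1% of all genes), 28 higher and 7 lower (37.8% higher, beside 10.8% of all genes). With median scaling the direction turned, with 14 of 74 called (18.9%), 1 higher and 13 lower, beside 21% of all genes, so no direction is given for this list. Gabpa, the DNA-binding subunit of GABP, was lower there (-1.41 ± 0.15, SE, limma adjusted p = 1.946e-05). In 595sp 6 of 9 genes of mitochondrial DNA maintenance and transcription were higher (66.7%, beside 10.9% of all genes), among them the helicase Twnk (0.61), the topoisomerase Top1mt (0.56) and the polymerase subunit Polg2 (0.55). With median scaling 5 of 9 were higher and none lower (55.6%, beside 9.56% of all genes called higher), these 3 among them. Myc was higher in 595sp resistant (1.66 ± 0.10, adjusted p = 7.427e-07). All cultures carry the Myc transgene, and its part in this signal was not tested. Gabpa and Myc belong to a list of 10 tested nuclear regulators of mitochondrial genes. Of that list 1 gene was higher and 2 lower in 589bm, and 2 were higher and 1 lower in 595sp. This is 30% in each line, beside 20.1% and 22.2% of all genes.

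Some markers of other cell types moved at the same time, while most of those tested were not called. At 24 h in the sensitive cultures the log2 change was -2.25 for the macrophage marker Mpeg1, -1.76 for the T cell marker Cd3g and -0.77 for the B cell marker Cd79b, each the only member called of its list. The other tested macrophage marker, Csf1r, lay at 0.19 and the other tested T cell marker, Cd3e, at 0.06, and neither passed. The summed log2 level of the 2 tested T cell markers was 16.53 to 17.57 at 0 h and 15.22 to 15.48 at 24 h. That of the 2 macrophage markers was 15.45 to 18.17 and 13.6 to 15.91, and that of the 3 B cell markers 26.08 to 26.09 and 24.96 to 25.09. The 6 plasma cell markers summed to 53.45 to 55.45 at 0 h and 53.73 to 54.67 at 24 h, with none called. The T cell markers Cd3d, Cd8a and Cd4 and the macrophage markers Adgre1 and Lyz2 were too dim to be tested. The erythroid marker Hba-a1 read 6.13 to 8.08 at 0 h and 6.43 to 6.63 at 24 h, and the stromal marker Col1a2 6.43 to 6.46 and 5.94 to 6.77. Between resistant and sensitive cultures, Cd3g differed by -0.51 in 589bm and -1.40 in 595sp, and Mpeg1 by -0.95 and -1.53. Cd3e lay at -0.15 in 589bm and 0.06 in 595sp, and Csf1r at 0.30 in 589bm. In 595sp Csf1r was lower (-1.16), and the plasma cell markers Irf4 (1.15) and Slamf7 (0.74) were higher. In 589bm Xbp1 (0.55) and Mzb1 (0.54) were higher, calls lost with median scaling (0.33 and 0.17). In each line 3 of the 6 tested plasma cell markers lay below 0, down to -0.515 in 595sp and -0.359 in 589bm, none called. The part of all these markers in the changes of the ribosomal protein genes was not tested.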

How the data were processed

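Biotin-labelled RNA was hybridised to Illumina bead arrays for mouse genes, as the labels state. The deposited non-normalised table holds signal intensity per probe on a linear scale, per the file headers, with array medians that differ and no detection p-values. The authors' second deposited table holds normalised intensity, with the same sorted values in all 20 columns within 1 percent. Software is not given in the sources used here. The near-blank array entered only an alternative.

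Intensities were corrected by normexp (offset 50), taken to log2 and quantile-normalised in limma 3.58.1 (R 4.3.3), and the brighter 50% of probes were kept (22641). Probe names come from the platform annotation, updated through gene numbers (34885 probes with 1 symbol, 18 with several, 10378 with none). Promoters were matched by symbol. Figures used matplotlib 3.10.9.

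Responses were tested with limma (lmFit, eBayes with intensity trend, Benjamini-Hochberg over kept probes) over 19 arrays, with terms for culture and for each time within a sensitivity (7 residual degrees of freedom). The 2 lines are the replicates, and the number of arrays limits the precision. The pairing comes from the cell line: all 19 arrays correlated best with an array of their own culture, so culture stayed as a block. Cultures of a line were compared with time as a term (3 residual degrees of freedom in 589bm, 4 in 595sp), and early with late arrays in a fit of culture by phase. The test of the difference between lines, the median scaling of the other gene lists and the fits without single arrays for the lesser rises were chosen after seeing the data.

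Named were, per comparison, the 8 largest falls and 4 largest rises among passing members (the 3 smallest p where none passed), a panel of members of known site, members with discordant probes, and up to 3 passing genes per other list. Mrpl34 and Mrpl47, called members outside that count in some comparisons, Mrpl46, Mrpl50, Mrpl55, Mrps24, Mrps35, Mrpl13, Mrpl24, Mrpl48, Mrps31, Mrpl22 and Mrpl35 were named after their values were seen. Of the panel, Mrpl41 and Mrps36 were not analysed here. Members and lists were chosen with earlier results of these data known. On simulated data for the sensitive 24 h comparison (22641 probes), 18%, 74%, 100% and 100% of changed probes were recovered at log2 sizes of 0.6, 1, 1.5 and 2.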

Additional observations from a re-analysis of the deposited data

Results flagged for a closer look

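By the test of the difference between the lines (limma, 18 arrays, 7 residual degrees of freedom), 14 of the 73 genes were called. This is 19.2% of the members, beside 22.6% of all genes. For these 14 the difference between the resistant and the sensitive culture was not the same in 595sp as in 589bm. In 595sp minus 589bm, it was negative for Mrps12 (-1.47), Mrpl51 (-1.18), Mrpl4 (-0.67), Mrpl33 (-0.66), Mrpl48 (-0.51) and Mrpl24 (-0.47). It was positive for Mrpl39 (1.03), Mrps18b (0.98), Mrpl50 (0.84), Mrpl37 (0.79), Mrpl47 (0.71), Mrps21 (0.70), Mrpl13 (0.69) and Mrps31 (0.51). Mrps12 was called in both lines with opposite signs. Mrps21 was called in neither line, with -0.41 in 589bm and 0.29 in 595sp. With median scaling 17 genes were called, 15 positive and 2 negative, and the share of all genes under that scaling is not given here. Mrpl4, Mrpl24, Mrpl33 and Mrpl48 did not pass with it (adjusted p from 0.6494 to 0.9835).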

How the results depend on the processing

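The counts of called members were recomputed under median scaling, without the filter on dim probes, with the authors' normalised values, without normexp, without the intensity trend and with the mean of a gene's probes, and, where they apply, with all 20 arrays, without the culture block, without the time term and without the 5 arrays titled 595spVR. Of 121 such counts over 16 comparisons, 94 lay within 1.5 times the reported one. These include comparisons with a reported count of 0, where a recount of 0 lies within that limit. The 94 is therefore no measure of how stable the counts above 0 are. The sensitive 8 h count (1) fell to 0 under 8 of these settings (all but the one without the intensity trend). The sensitive 16 h count (12) was 7 with median scaling, 0 with 20 arrays, 0 without the replicate block and 6 without the 5 arrays. The sensitive 24 h count (19) was 12 with median scaling, 12 without the filter, 0 with 20 arrays, 0 without the replicate block and 9 without the 5 arrays. Over all genes, calls at 24 h fell from 1709 to 59 without the replicate block. The count within 589bm (17) was 0 with 20 arrays and 10 without the time term, and that within 595sp (15) was 8 with median scaling. Late against early arrays gave 22 (mean of probes) for 14 in 589bm sensitive, and 45 (median scaling) or 11 (no filter) for 17 in 595sp sensitive. In 595sp resistant they gave 0 (median scaling), 0 (no filter), 3 (no trend) and 3 (mean of probes) for 5. Leaving out one array gave 0 to 1 at 8 h, 2 to 13 at 16 h, 5 to 8 at 24 h, 8 to 19 within 589bm, 10 to 15 within 595sp, 3 to 16 and 3 to 17 in the late comparisons of 589bm and 595sp sensitive, 0 to 5 in that of 595sp resistant and 10 to 15 for the line difference. The median change of the members then ranged from -0.07 to 0.05 at 2 h and from -0.19 to 0.02 at 16 h in the sensitive cultures, from -0.13 to 0.02 at 16 h in the resistant ones and from -0.06 to 0.12 for the response difference. It ranged from -0.05 to 0.05 in late 589bm sensitive and from -0.04 to 0.03 in late 589bm resistant. At 0 h no array could be left out, since no residual degree of freedom remains.

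The median change of the members changed sign with median scaling at 2 h in the sensitive cultures (0.04) and at 8 h in the resistant ones (0.03). It also did so at 0 h between cultures (-0.11), within 589bm (-0.08), in late 589bm sensitive (-0.30), late 589bm resistant (-0.08) and late 595sp resistant (0.02), and for the line difference (0.41). With the mean of probes it did so in late 589bm sensitive (-0.10), and with 20 arrays within 589bm (-0.60). With 20 arrays, of which the near-blank one sits in 589bm resistant, Mrps6 (-0.25), Mrpl11 (-0.46), Mrpl12 (-0.14) and Mrps27 (-0.09) changed sign within 589bm. Beyond median scaling and 20 arrays, whose construction is known, the causes were not tested. Arrays carry no depth, and dim probes such as those of Mrpl39, Mrpl51 and Sars2 lie near the background.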

Other observations

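The number of kept probes per gene differed, from 1 for 45 members to 7 for Mrpl15, whose brightest probe was not called in the responses. Of 6 genes called at 24 h in the sensitive cultures that had several probes, 4 had the same sign in all probes and 1 (Mrps26) had all probes called. Within 595sp the counts were 7 of 7 and 5.

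Mrps15 varied between neighbouring times like Mrpl20 and Mrpl52. It read 9.54 at 0 h, 8.28 at 2 h, 9.42 at 8 h, 8.32 at 16 h and 8.18 at 24 h in 589bm sensitive, and 9.11, 9.37, 8.05, 8.78 and 8.00 in 595sp sensitive. At 24 h its change was -1.23 with an adjusted p of 0.05598 (limma).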
